A study of Mus musculus with 12 samples.

Results

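Interferon-stimulated genes are genes that cells transcribe after an interferon binds its receptor. The 9 genes described here are Irf1, Irf7, Ifit1, Ifit3, Isg15, Usp18, Igtp, Irgm1 and Gbp2, which were chosen by name from 22609 gene symbols with read counts. They were measured in lingual sensory neurons, which are neurons of the trigeminal ganglion (TG) that innervate the tongue. To obtain these cells, WGA-488, a fluorescent tracer that nerve endings take up, was injected in the tongue on day 13 and bright cells were sorted from dissociated TGs on day 15, after which RNA was sequenced in bulk. All mice were adult Balb/c athymic nude mice, a strain without a thymus and therefore without mature T cells, and all received the tracer. Male normal (MN) and female normal (FN) mice had no tumor, whereas male tumor (MT) and female tumor (FT) mice carried a tongue tumor grown from HSC3 cells, a human oral squamous cell carcinoma line, for 15 days. Every group had 3 libraries, each from 4 TGs, which came from 2 mice in the normal groups and from the tumor side of 4 mice in the tumor groups. The labels give normal mice no cells and a 0.5% tracer solution, whereas the methods text describes an injection of human normal oral keratinocytes in the normal group and another tracer concentration. This conflict was not settled, so the tumor comparisons may be against injected or uninjected tongues.

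Type I interferons, such as the alpha and beta forms, signal through the receptor chains Ifnar1 and Ifnar2, and the kinases behind them activate a complex with Stat2 and Irf9 that binds the interferon-stimulated response element in promoters. Interferon gamma signals through Ifngr1 and Ifngr2, and its response acts at gamma-activated sites in promoters. Irf1 and Irf7 are transcription factors of this response, the Ifit proteins bind foreign RNA, Isg15 is a ubiquitin-like modifier that Usp18 removes from its targets, and Igtp, Irgm1 and Gbp2 are GTPases that act on the membranes around intracellular pathogens.

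The promoters of 8 members were found in a RefSeq table of the build GRCm38.p6, which holds 300 bases per start site, from 250 before the start to 50 after it. Both strands were searched for the core of the response element, GAAANNGAAA (TTTCNNTTTC on the opposite strand), and for the gamma-activated site, TTCNNNGAA, which reads the same on both strands. The response element core was found in 6 members, Ifit1, Ifit3, Isg15, Igtp, Irgm1 and Gbp2, against 3.44% of the 32851 promoters in the table. The gamma-activated site was found in Irf1 and Igtp, in 2 of the 9 windows, against 8.3% of all promoters. The stretches around the matches are printed because they show how the letters are spaced in each member, with capitals marking the matches and each stretch read along the strand of its gene.
Irf1, chr11:53769909-53769947, plus strand: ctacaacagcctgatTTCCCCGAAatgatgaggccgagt
Ifit1, chr19:34640770-34640828, plus strand: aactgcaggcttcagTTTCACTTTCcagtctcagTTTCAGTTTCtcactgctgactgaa
Ifit3, chr19:34583358-34583431, plus strand: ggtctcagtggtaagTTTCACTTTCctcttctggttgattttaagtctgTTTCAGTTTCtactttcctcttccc
Isg15, chr4:156200860-156200911, minus strand: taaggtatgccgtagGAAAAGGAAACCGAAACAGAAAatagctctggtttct
Igtp, chr11:58199496-58199546, plus strand: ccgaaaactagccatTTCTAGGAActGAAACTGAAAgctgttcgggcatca
Irgm1, chr11:48871421-48871465, minus strand: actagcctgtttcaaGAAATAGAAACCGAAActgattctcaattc
Gbp2, chr3:142620589-142620628, plus strand: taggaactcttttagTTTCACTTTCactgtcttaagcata
Ifit1 and Ifit3 each held 2 separate matches on the opposite strand with the same letters, GAAAGTGAAA farther from the start and GAAACTGAAA nearer to it. Isg15 held 3 overlapping matches between 78 and 57 bases before the start, and Irgm1 held 2 between 30 and 15 bases before it. In Igtp a gamma-activated site at 45 to 37 bases before the start lay next to a response element core at 34 to 25 bases. Irf7 had no match of either pattern, and Usp18 was not in the table. A match is a description of the letters and not of binding in these cells.

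**Figure D1:**
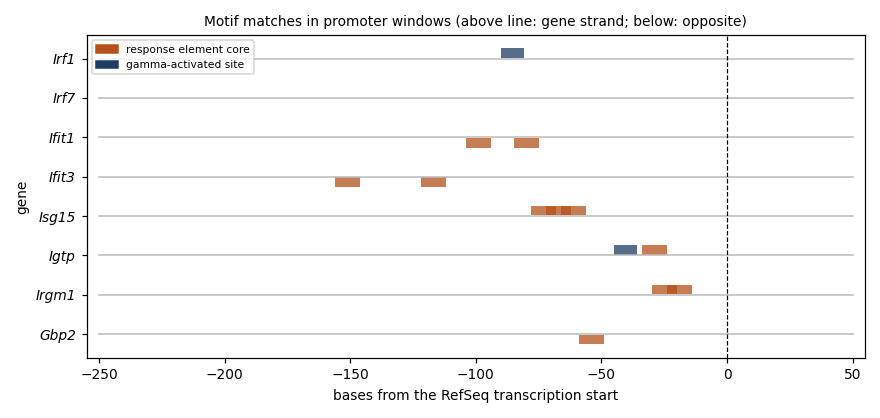
Positions of the motif matches in the promoter windows of 8 members, in bases from the RefSeq transcription start, with matches on the strand of the gene above each line and those on the opposite strand below it. The 6 members with a response element core have it between 156 and 15 bases before the start, and Irf7 has no match.

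Each library held 4592891 to 8922011 reads on genes. Values below are CPM, in which the reads of a gene are scaled by that total, listed in the order of replicates 1, 2 and 3. Of the female libraries, 3 stood apart, namely FN replicate 2, FT replicate 2 and FT replicate 3. In FN replicate 2, multimapped reads took 56.0% of the sequenced total. This share was 68.4% in FT replicate 2, and FT replicate 3 had 52.6%, while the other 9 libraries held 43.0% to 45.5%. The Spearman rho over genes of log2 CPM was 0.960 to 0.985 among these 9, but 0.728 to 0.769 between them and FN replicate 2, 0.686 to 0.720 for FT replicate 2 and 0.811 to 0.851 for FT replicate 3. Comparisons of the members that include these libraries are therefore given with and without them. The 12 sensory neuron markers summed to 14554 to 26590 CPM in all libraries, but single markers differed. Calca was at 11272 CPM in FN replicate 2 against 3843 and 3918 CPM in the other FN libraries, and Trpv1 at 11.4 CPM against 163 and 235 CPM. Markers of other cells are given after the comparisons of the members. Because the libraries are bulk samples, fewer cells of a type and less RNA per cell cannot be told apart.

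All 9 members were detected in every library, with 4 to 852 reads, and all passed the filter on low counts. Per kilobase of exon (RPKM), the median level over the 12 libraries was highest for Irf1 (17.1) and Igtp (16.7). Ifit1 (9.54), Isg15 (8.39), Irf7 (7.79) and Gbp2 (7.23) formed a middle range, and Usp18 (3.49), Irgm1 (3.29) and Ifit3 (1.46) were the lowest on this scale. Reads that fit several places were left out of the counts by the authors, so levels of members with near-identical relatives are uncertain, which applies to Ifit3 with its paralog Ifit3b and to the Gbp and immunity-related GTPase families. Whether counting used strand is not given in the sources used here, and reads from overlapping antisense genes could therefore be included.

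Among the transcription factors, Irf1 (mm9 chromosome 11, 53583516 to 53591876, plus strand) switches on genes of the gamma response. Its level was 59.6, 68.4 and 44.6 CPM in MN and 107, 61.5 and 67.5 CPM in MT. In females Irf1 was at 71.1, 53.1 and 70.3 CPM in FN and at 81.2, 24.8 and 85.9 CPM in FT. MT replicate 1 was the highest library and FT replicate 2 the lowest, and all 4 groups overlapped. Irf7 (chromosome 7, 148448605 to 148452380, minus strand) amplifies the production of type I interferon. It was at 18.4, 14.7 and 27.9 CPM in MN and at 25.2, 16.5 and 43.8 CPM in MT. In FN it was nearly even, at 23.4, 23.5 and 24.5 CPM, whereas in FT it was at 23.6, 1.74 and 25.1 CPM. The value in FT replicate 2 rested on 8 reads, with a 95% Poisson interval of 0.752 to 3.43 CPM that covers counting error only, and it lay below every other library.

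Of the RNA-binding effectors, Ifit1 (chromosome 19, 34715361 to 34724499, plus strand) recognises RNA caps that lack the methylation of host transcripts. Ifit1 was at 24.3, 20.1 and 30.3 CPM in MN and at 41.1, 24.2 and 45.7 CPM in MT. It was at 20.5, 15.9 and 31.4 CPM in FN and at 26.3, 5.44 and 28.0 CPM in FT. MT replicates 1 and 3 were above all other libraries, while MT replicate 2 lay within the MN range. Ifit3 (chromosome 19, 34658021 to 34663221, plus strand) binds to Ifit1 and was the least abundant member. It was at 2.25, 1.57 and 2.41 CPM in MN and at 2.64, 3.75 and 7.16 CPM in MT. In females Ifit3 was at 5.15, 1.83 and 2.47 CPM in FN and at 4.25, 0.871 and 3.07 CPM in FT. Every MT library was above every MN library, but MT replicate 1 (95% Poisson interval 1.63 to 4.04 CPM) and MN replicate 3 (1.49 to 3.68 CPM) overlapped within counting error.

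Isg15 (chromosome 4, 155573533 to 155574927, minus strand), the ubiquitin-like modifier, was at 5.20, 3.70 and 4.71 CPM in MN and at 5.41, 3.20 and 7.28 CPM in MT. It was at 8.80, 16.8 and 7.94 CPM in FN and at 4.25, 9.14 and 11.3 CPM in FT. All FN libraries were above all 6 male libraries, whereas FT replicate 1 was within the MN range. Usp18 (chromosome 6, 121195924 to 121220934, plus strand) removes Isg15 from proteins and also binds Ifnar2 to limit type I signaling. Usp18 was at 4.36, 2.58 and 5.62 CPM in MN and at 5.53, 5.56 and 13.5 CPM in MT. It was at 8.30, 10.96 and 8.63 CPM in FN and at 6.72, 4.57 and 15.6 CPM in FT. FN again lay above MN without overlap, and MT replicate 3 and FT replicate 3 were the highest libraries.

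Among the GTPases, Igtp (chromosome 11, 58013058 to 58021093, plus strand), also known as Irgm3, guards host membranes against other members of its family. It was at 22.5, 23.4 and 26.05 CPM in MN and at 32.3, 32.9 and 49.4 CPM in MT. Igtp was within a narrow range in FN, at 35.7, 34.4 and 34.8 CPM, and spread widely in FT, at 35.5, 16.1 and 49.4 CPM. All MT and all FN libraries were above all MN libraries. Irgm1 (chromosome 11, 48675470 to 48685185, minus strand), a regulator of the same family that is also linked to autophagy, was at 18.98, 19.3 and 16.1 CPM in MN and at 30.3, 23.8 and 33.6 CPM in MT. It was at 19.5, 12.8 and 18.5 CPM in FN and at 23.3, 4.79 and 18.5 CPM in FT. The MT libraries were the 3 highest of all 12. Gbp2 (chromosome 3, 142283566 to 142300972, plus strand), a guanylate-binding protein that gathers on pathogen vacuoles, was at 18.3, 12.7 and 19.2 CPM in MN and at 19.2, 17.2 and 32.0 CPM in MT. It was at 18.98, 3.52 and 18.1 CPM in FN and at 19.5, 10.0 and 8.78 CPM in FT, so that FN replicate 2, FT replicate 2 and FT replicate 3 were its 3 lowest libraries.

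**Figure D2:**
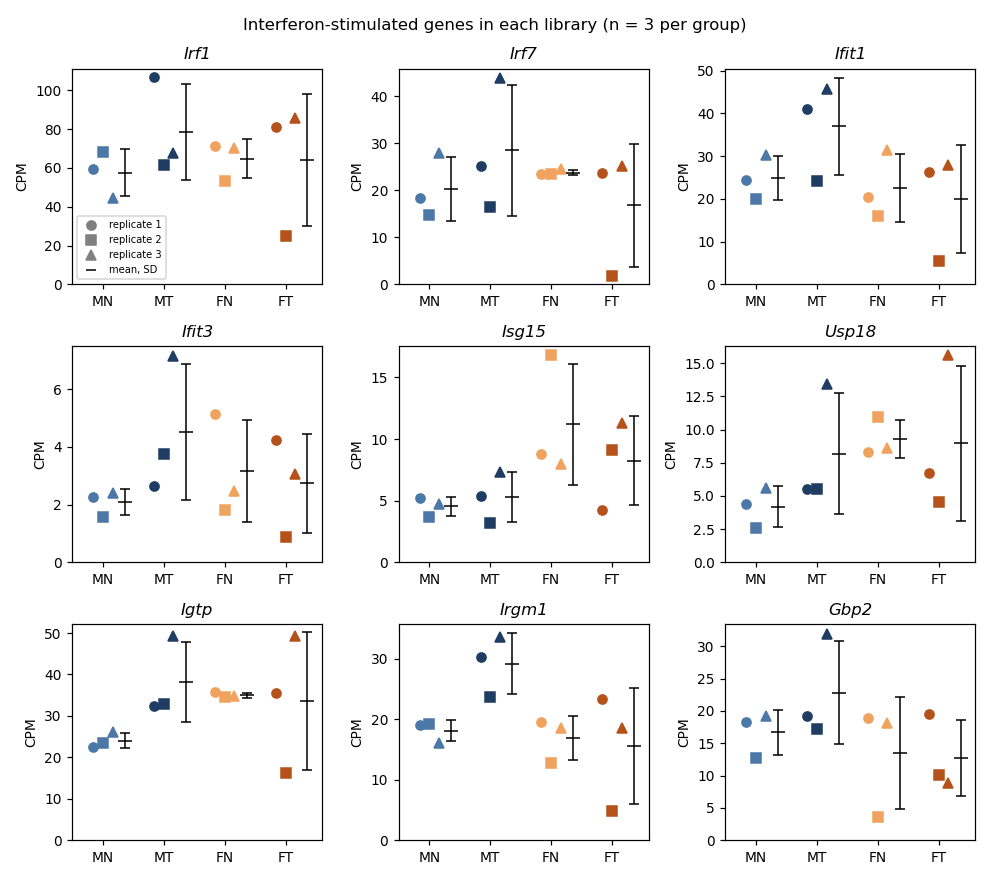
Level of each member in CPM (vertical axis, from 0) in the 12 libraries by group, with the mean and SD of each group in black (n = 3). Igtp, Irgm1 and Ifit3 in MT lie above MN without overlap, Isg15, Usp18 and Igtp in FN lie above MN without overlap, and FT replicate 2 is the lowest library for 6 members.

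By group mean, MT was highest for 7 members and FN for the remaining 2, Isg15 and Usp18, while MN was lowest for 5 members and FT for 4. With the 4 groups ranked by mean for each member, 26 of the 27 pairs of neighbouring groups overlapped, and the exception was Irgm1 in MT (29.2 ± 5.00 CPM, SD, n = 3) over MN (18.1 ± 1.78 CPM). This ranking was not made over all genes, so the count describes the members only. For MT above MN alone, 5.8% of all genes did not overlap. The comparisons that follow share groups with one another, so their results are not independent.

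The first comparison asked how the members differed in males with a tongue tumor. All 9 members had a positive log2 fold change in MT versus MN, although that of Isg15 turned negative under 2 of 20 alternative settings. The median of the members was 0.59, against 0.01 over the 13835 genes tested. In the gamma-induced GTPases, Igtp went from 23.99 ± 1.84 CPM (SD, n = 3) in MN to 38.2 ± 9.68 CPM in MT, a log2 fold change of 0.68 ± 0.36 (SE), and that of Irgm1 was 0.70 ± 0.40. Ifit3 had the largest value, 1.12 ± 0.57, followed by Usp18 with 0.97 ± 0.53. The others ranged from 0.24 ± 0.53 for Isg15 to 0.59 ± 0.45 for Ifit1.

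No member passed an adjusted p of 0.05 in edgeR's quasi-likelihood test of the 12 libraries, where adjusted p was 1.00 for all 9 and 0% of all genes passed. At an unadjusted p under 0.05, 0 members passed in the same test, against 0.426% of all genes, and the lowest unadjusted p among members was 0.0674, for Ifit3 in the edgeR fit. DESeq2 called 2 genes and limma-voom with quality weights called 47 genes at the adjusted threshold, with 0 members in either. All MT libraries were above all MN libraries for 3 members, Ifit3, Igtp and Irgm1, against 5.8% of all genes. Igtp and Irgm1 are genes that the study itself picked from these libraries, so they are not independent evidence of a direction.

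The SE depended on which libraries set the spread. In an edgeR fit of the 6 male libraries alone, the log2 fold changes of Igtp and Irgm1 were again 0.68 and 0.70, but the SE was 0.17 for Igtp and 0.16 for Irgm1. With the spread of the males only, 5 members had an unadjusted p under 0.05 in edgeR, among them Irgm1 (0.00148) and Igtp (0.0021), against 6.92% of all genes in that fit, and the lowest adjusted p of a member was 0.334. Without MT replicate 3, in the edgeR fit of 11 libraries, the value of Igtp was 0.49, that of Irgm1 0.62, that of Ifit3 0.66 and that of Usp18 0.45. The same 3 members remained above MN without overlap in the remaining MT libraries, beside 10.9% of all genes.

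**Figure D3:**
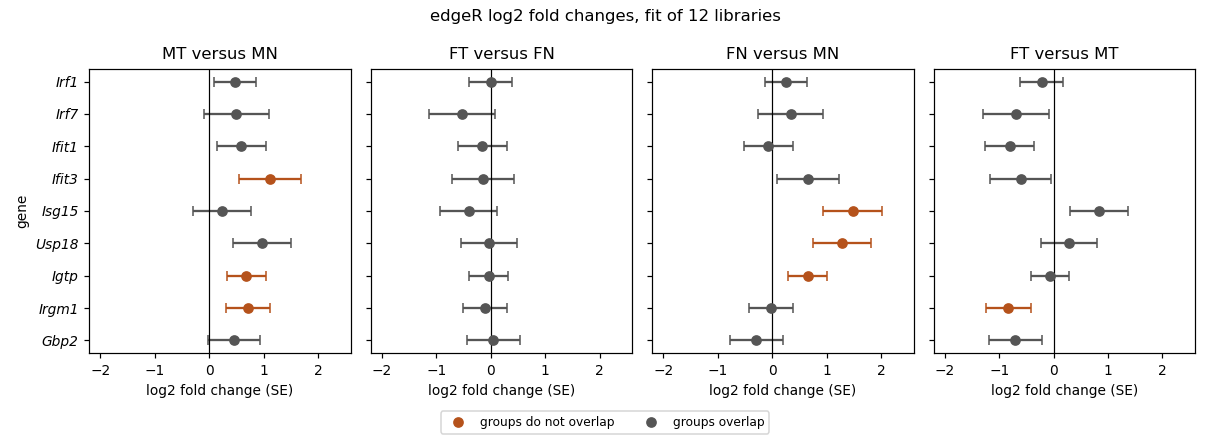
Log2 fold change of each member (horizontal axis) with its SE in 4 comparisons from the edgeR fit of 12 libraries, with orange points where the 2 groups did not overlap. MT versus MN lies to the right of 0 for all 9 members, the smallest being Isg15 at 0.24, which turned negative under 2 of 20 alternatives, and no value passed an adjusted p of 0.05.

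In females the tumor comparison gave values of both signs, with 7 members below 0 and 2 above. The median log2 fold change in FT versus FN was -0.10, against -0.06 over all genes tested. The members ranged from -0.53 ± 0.60 (SE) for Irf7 to 0.05, and Isg15 was at -0.41 ± 0.52. No member passed in edgeR, where adjusted p was at least 0.994 and 0% of all genes passed. At an unadjusted p under 0.05 the edgeR fit passed 0 members and 3.82% of all genes, and DESeq2 and limma-voom called 0 genes after adjustment. No member was higher in every FT than in every FN library, against 1.22% of all genes.

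These values rested on the libraries that stood apart. The sign of each of the 9 members changed under at least 1 of 20 alternatives. Without FN replicate 2 and FT replicate 2 the median was 0.17, with 8 of the 9 members above 0. With FT replicate 3 also left out it was 0.03, where FT was a single library and was assumed to vary like the other groups. A direction of the members in tumor-bearing females was therefore not detectable in these libraries.

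The normal groups were compared next, and here Isg15 and Usp18, the modifier and its protease, had the largest values. Isg15 was at 11.2 ± 4.90 CPM (SD, n = 3) in FN and 4.54 ± 0.77 CPM in MN, and the log2 fold change was 1.48 ± 0.54 (SE). Usp18 was at 9.30 ± 1.45 CPM in FN and 4.19 ± 1.53 CPM in MN, and the log2 fold change was 1.28 ± 0.53. Ifit3 came next at 0.66 ± 0.57 and Igtp at 0.65 ± 0.36, and the level of Igtp in FN was 34.98 ± 0.65 CPM. Irf7 at 0.34 ± 0.60 and Irf1 at 0.26 ± 0.39. The median of the members was 0.34, against 0.07 over the 13360 genes tested without X and Y. The signs of Ifit1, Irgm1 and Gbp2, whose fold changes were under 0 here, changed between alternatives.

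In the edgeR fit 0 members and 0% of all genes passed an adjusted p of 0.05, with an adjusted p of at least 0.809 for members. At an unadjusted p under 0.05 in edgeR, 2 of the 9 members passed, Isg15 and Usp18, against 5.57% of all genes. Their unadjusted p values in that fit across all genes were 0.0151 and 0.0287. All FN libraries were above all MN libraries for 3 members, Isg15, Usp18 and Igtp, against 9.66% of all genes. Limma-voom with quality weights, which gives less weight to libraries that fit poorly, called these 3 members, with an adjusted p of 0.0438 to 0.0462, among 800 genes in all. DESeq2 called 20 genes and 0 members.

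In the 9 libraries without the 3 that stood apart, the log2 fold change was 0.84 for Isg15, 0.97 for Usp18 and 0.50 for Igtp, and the adjusted p in edgeR was 0.252, 0.291 and 0.197. FN replicate 2 held the highest Isg15 level of all libraries, and the value for Isg15 was 0.85 without it. In the 2 FN libraries left, 5 members lay above MN without overlap, with Irf1 and Ifit3 added, beside 23.2% of all genes.

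Between the tumor groups, FT versus MT, 7 members were below 0 and 2 above, and the signs of Irf1, Usp18, Igtp and Isg15 changed between alternatives. The median log2 fold change was -0.60, against 0.07 over all genes tested. Irgm1 was at -0.83 ± 0.41 (SE), Ifit1 at -0.81 ± 0.46, Gbp2 at -0.71 ± 0.49, Irf7 at -0.69 ± 0.60 and Ifit3 at -0.60 ± 0.56, whereas Isg15 was at 0.83 ± 0.53. In the 9 libraries, where FT was 1 library, Isg15 was at -0.38 and the median was -0.33. In edgeR 0 members and 0% of all genes passed an adjusted p of 0.05, and 0 members passed an unadjusted p under 0.05, against 12.1% of all genes. DESeq2 called 246 genes and limma-voom 0, with 0 members in either.

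All FT libraries were below all MT libraries for Irgm1 alone, against 9.61% of all genes, and no member was above in all of them, against 8.03%. The nearest Irgm1 values, 23.3 CPM in FT replicate 1 (95% Poisson interval 19.9 to 27.1) and 23.8 CPM in MT replicate 2 (20.3 to 27.6), were not separated by counting error.

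Whether the tumor comparison differed between the sexes was tested directly, as the FT versus FN value minus the MT versus MN value. This difference was negative for all 9 members in the 12 libraries and under each of 19 alternatives, from -0.42 ± 0.68 (SE) for Gbp2 to -1.26 ± 0.80 for Ifit3. The median was -0.74, against -0.07 over all genes tested. In edgeR the adjusted p was 1.00 for every member and 0% of all genes passed. At an unadjusted p under 0.05, 0 members and 1.47% of all genes passed in edgeR, and DESeq2 and limma-voom called 0 genes after adjustment. In the 9 libraries the median was -0.56, and 2 members had an unadjusted p under 0.05 in edgeR, against 5.1% of all genes, with a lowest adjusted p of 0.959. A difference between the sexes in the response of these genes was thus not detectable in these libraries.

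The members varied together from library to library. MT replicate 3 was the highest of all 12 libraries for 6 members and was above both other MT libraries for 8, by a median of 1.69 times their mean. FT replicate 2 was the lowest of all libraries for 6 members and was below both other FT libraries for 7, at a median of 0.297 times their mean. Within the 9 libraries, the Pearson r of log2 CPM was positive for all 36 pairs of members, from 0.03 to 0.92 with a median of 0.60. Against the mean of the other 8 members, Igtp (0.91), Usp18 (0.90) and Gbp2 (0.90) were most alike and Irf1 (0.23) the least. Over all 12 libraries 29 of 36 pairs were positive, and Isg15 was at -0.14 against the others. The libraries share their total and cell makeup, so these values are a description.

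**Figure D4:**
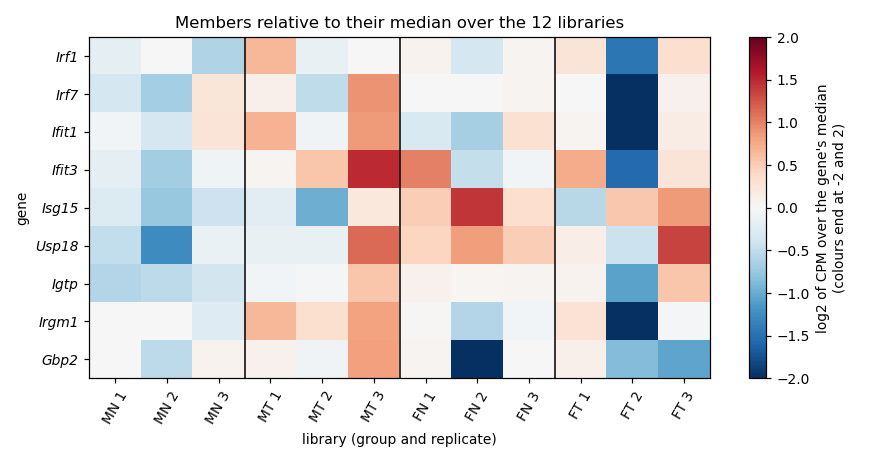
Log2 of the CPM of each member over its median in the 12 libraries, with genes in rows and libraries in columns. MT replicate 3 is red for all members except Irf1, which was at 67.5 CPM there, and FT replicate 2 is blue for all members except Isg15, which was at 9.14 CPM.

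Several marker lists of cells other than neurons were higher in MT replicate 3 than in the other MT libraries. FT replicate 2, the lowest library for 6 members, did not follow the members in every list. Its macrophage sum was 141 CPM, above every MN library, and its neutrophil sum of 195 CPM was the highest of all 12 libraries. Its endothelial sum, 324 CPM, was the lowest. The sum of 12 macrophage markers was 22.8 to 37.4 CPM in MN, and 18.9 and 22.4 CPM in MT replicates 1 and 2, against 237 CPM in MT replicate 3, where all 12 markers were above both other MT libraries. All 10 endothelial markers, all 6 fibroblast markers and all 5 markers of myelinating Schwann cells found among the symbols were likewise highest in replicate 3 among MT. Igtp and Irgm1 in MT replicates 1 and 2 were above every MN library, as given above. The part of these other cells in MT versus MN was not tested for any member.

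The macrophage sum was 177 to 403 CPM in FN and 141 to 463 CPM in FT. In FN versus MN, 7 of the 12 macrophage markers and 5 of the 10 endothelial markers lay above MN without overlap, against 9.66% of all genes. The 7 satellite glia markers summed to 8157 to 16443 CPM in FN against 4139 to 4964 CPM in MN. Of the 12 sensory neuron markers, 5 lay below MN in every FN library, against 10.2% of all genes, namely Snap25, Nefh, Avil, Pirt and Scn10a. The macrophage, endothelial and satellite glia sums were above MN in every FN library, as were Isg15, Usp18 and Igtp. The sensory neuron sums overlapped, at 18637 to 26590 CPM in FN and 20121 to 21889 CPM in MN. Single markers did not all follow the sums. In FN replicate 2, Cx3cr1 was at 0.13 CPM against 0.785 to 1.26 CPM in MN. Pecam1 was at 15.0 CPM there, against 43.9 to 134 CPM in MN. The part of these lists in the comparison of normal groups was not tested. Neutrophil markers summed to 18.6 to 78.2 CPM in FN and 0.562 to 25.4 CPM in MN. Markers of T, natural killer and B cells summed to at most 6.75 CPM in any library, with Cd3e and Ncr1 at 0 in all 12. Of the same list, Cd79a was at 0.126 to 1.31 CPM in all 12 libraries, and FT replicate 2 held Cd4 at 3.70 CPM and Ms4a1 at 1.74 CPM. Plasmacytoid dendritic cells, a strong source of type I interferon, had Klk1 at 0 in all libraries and a summed level of 5.27 to 21.9 CPM over 4 markers, of which Bst2 is itself interferon-induced. Siglech, a receptor of these cells, was at 0.141, 0 and 0 CPM in MN and at 0, 0 and 0.864 CPM in MT. It was at 4.78, 0.13 and 0.548 CPM in FN and at 2.19, 1.09 and 4.18 CPM in FT, where every library was above every MT library, as for 8.03% of all genes. The nearest values, in FT replicate 2 and MT replicate 3, were close to the level of 3 reads, which is 0.653 and 0.370 CPM there.

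**Figure D5:**
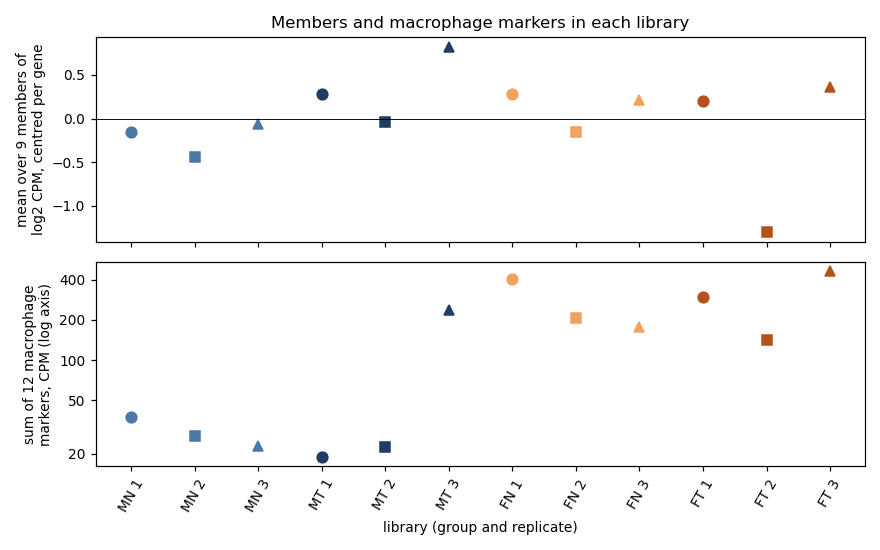
Mean over the 9 members of log2 CPM centred per gene (upper panel) and the summed CPM of 12 macrophage markers on a log axis (lower panel), in each library. MT replicate 3 has the highest mean of the members (0.83) and a macrophage sum of 237 CPM, and FT replicate 2 has the lowest mean (-1.31) with a macrophage sum of 141 CPM.

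The interferons themselves were close to absent from these libraries. Of 20 interferon genes searched, 18 were among the gene symbols, 17 of them had 0 reads in all 12 libraries, and Ifnk had 2 reads in MT replicate 3. With 4592891 to 8922011 reads per library, a count of 0 allows a level of up to 0.336 to 0.653 CPM, a limit that covers counting error only. It does not hold for interferon alpha genes with near-identical copies, since reads that fit several places were left out. The 12 genes of the receptors and their signaling chain all had reads, although Il28ra had at most 19 reads in a library and 0 in FT replicate 3. Ifnar1 was at 66.6 to 76.2 CPM in MN and Ifngr1 at 45.8 to 52.6 CPM. No gene of this list passed an unadjusted p of 0.05 in the edgeR fit of 12 libraries in any comparison.

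In MT versus MN, the lists of other induced genes had positive medians of smaller size than that of the members. Members and lists were chosen with earlier results of these data known, so this contrast is a description only. Of 45 other type I induced genes tested, 34 were above 0 and 11 below, with a median log2 fold change of 0.20, and of 19 other gamma-induced genes 16 were above 0, with a median of 0.34. The medians of 15 inhibitors and of 14 sensors of foreign nucleic acids were 0.16 and 0.05. None passed an adjusted p of 0.05 in edgeR, and 1 passed an unadjusted p under 0.05. That gene was Ifi202b, an interferon-inducible DNA-binding protein, which was at 0.141, 0.224 and 0.918 CPM in MN and at 3.27, 2.22 and 3.83 CPM in MT. Its log2 fold change was 2.80 ± 0.73 (SE, adjusted p = 1.00 in edgeR), and its MT libraries did not overlap with MN. The chemokine Cxcl10 was at 6.89, 5.49 and 1.49 CPM in MN and at 16.6, 7.92 and 8.77 CPM in MT, with a log2 fold change of 1.29 ± 0.82, and it is also a gene that the study picked. Socs3, a feedback inhibitor of cytokine receptors, was at 78.2, 131 and 93.4 CPM in MN and at 187, 135 and 175 CPM in MT, with a log2 fold change of 0.73 ± 0.48. The study picked Socs3 from these libraries too.

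In FN versus MN the type I list had a median of 0.53, with 32 of 45 genes above 0, and 14 of 15 inhibitors were above 0 with a median of 0.46. None passed an adjusted p of 0.05 in edgeR. At an unadjusted p under 0.05, 4 of the 45 type I genes, 3 of the 19 gamma-induced genes and 2 of the 15 inhibitors passed, against 5.57% of all genes. In the 9 libraries, where 15.2% of all genes passed that threshold, the medians of the type I genes and the inhibitors were 0.30 and 0.16, and 0 genes of these lists passed after adjustment. Ifi202b was at 2.77, 5.74 and 4.25 CPM in FN, a log2 fold change of 3.39 ± 0.73 (adjusted p = 0.809 in edgeR), and Rsad2, the antiviral enzyme viperin, was at 1.08 ± 0.41. Psme1 and Psme2, the proteasome activator subunits induced by interferon gamma, were both at 1.18, and Psmb9, an immunoproteasome subunit, was at 0.90 ± 0.37. Psme1 was at 0.56 and Psme2 at 0.54 in the 9 libraries, while Ifi202b was at 2.90, Rsad2 at 1.14 and Psmb9 at 0.65. For these 3 proteasome genes all FN libraries were above all MN libraries, as for 9.66% of all genes. Psme1 was highest in FN replicate 2 (82.7 CPM) and was at 45.3 and 39.6 CPM in the other FN libraries, against 24.4 to 31.5 CPM in MN.

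In FT versus FN, Ifitm1 and Psmb8 had the lowest unadjusted p of the type I and the gamma-induced list. At an unadjusted p under 0.05 in edgeR, 4 of the 45 type I genes passed above 0 and 1 below. Of the 19 gamma-induced genes 1 passed, above 0, against 3.82% of all genes. The type I gene below 0 was Ifit2, with a log2 fold change of -1.03 ± 0.37 (SE). Ifitm1, a membrane protein that limits viral entry and a gene that the study picked, was at 7.96, 29.8 and 12.0 CPM in FT and at 4.53, 7.44 and 4.25 CPM in FN, with a log2 fold change of 1.74 ± 0.60 (adjusted p = 0.994 in edgeR). Psmb8, an immunoproteasome subunit, was at 53.1, 298 and 112 CPM in FT and at 56.3, 86.1 and 50.8 CPM in FN. Ifitm1 was at 0.86 and Psmb8 at -0.0065 on the log2 fold change scale in the 9 libraries, where FT was 1 library. In both genes FT replicate 2, the library with the lowest levels of 6 members, had the highest level. The medians of the type I and gamma-induced lists in FT versus FN were -0.13 and -0.26. For the difference between the sexes in the tumor comparison, 33 of the 45 type I genes and 15 of the 19 gamma-induced genes were below 0, with medians of -0.27 and -0.71, and none passed an adjusted p of 0.05 in edgeR. The corresponding medians in the 9 libraries were -0.076 and -0.11 in FT versus FN, and -0.21 and -0.39 for the difference between the sexes. In FT versus MT the type I list did not share the negative median of the members. Its median was 0.07, with 25 of 45 genes above 0, and that of the gamma-induced list was -0.20, with 13 of 19 below 0. In the 9 libraries, where FT was 1 library, these medians were 0.065 and 0.033, so that of the gamma-induced list changed sign. At an unadjusted p under 0.05 in edgeR, 8 type I genes passed above 0 and 1 below. Of the gamma-induced genes 3 passed in each direction, against 12.1% of all genes.

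Genes most like the members were sought among 11132 genes with a mean over 5 CPM, by the Pearson r of their log2 CPM with the mean of the 9 members. Over the 12 libraries the closest were Ifi47 (0.932), Gch1 (0.932), Aasdhppt (0.932), Prpsap2 (0.922) and Ppox (0.919). All 5 had their lowest level in FT replicate 2, for example 1.09 CPM for Ifi47 against 4.59 to 22.2 CPM elsewhere. Over the 9 libraries the closest were N4bp2l1 (0.950), Fas (0.924), Bckdk (0.922), Sat1 (0.922) and H2-Gs10 (0.918). Fas, also a gene that the study picked in MT versus MN, was at 6.28 to 10.7 CPM in MN and at 13.2, 11.7 and 21.6 CPM in MT. The 2 sets shared no gene, so likeness depended on the libraries used.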

How the data were processed

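Lingual TG cells of 12 pools of mice were sequenced as SMART-seq2 libraries, which carry no molecular identifiers. Per the labels and the methods text, the authors used CASAVA 1.8.2, TopHat2 on mm9, SAMtools and HTSeq, and the deposited values are whole read counts per gene symbol without normalization. Other versions, the annotation and the strand setting are not given in the sources used here. Reads that HTSeq placed on no gene, 76.3% to 88.8% of a library, entered neither library sizes nor tests.

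CPM used the reads counted on genes, and correlations used log2 CPM after adding 0.5 to each count. RPKM used exon lengths of GENCODE release M1 (mm9), which matched 95.7% of symbols and gave the positions of the genes, whereas promoters came from RefSeq on GRCm38.p6, and no position was moved between builds. Groups were taken from the labels. The main test was edgeR 4.0.16 (R 4.3.3), with TMM, filterByExpr (minimum count 10, total 15), a mean per group in 1 fit of 12 libraries, the quasi-likelihood F test and Benjamini-Hochberg adjustment over all genes tested. Comparisons of females with males excluded 475 sex-linked genes. Scripts were tested on simulated data. Poisson intervals are exact at 95%, cover counting error only, and the limit for a count of 0 is 3 reads. An exact permutation test of 3 against 3 libraries cannot go below 0.1, so none was used.

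Alternatives were RLE size factors, DESeq2 1.42.0, limma-voom (limma 3.58.1) with quality weights, no filter, a fit of the 2 groups compared, 9 or 10 libraries, the replicate number as a block, and each library left out. Groups that do not overlap were also counted with libraries left out, and pathway lists were also given in the 9 libraries, both chosen after seeing the data. Members, pathway lists and marker lists were chosen with earlier results of these data known. All members are named. From each pathway list, genes with the lowest unadjusted p per comparison could be named, up to 3, and the 5 genes most like the members. Ifnk, Il28ra, and levels of Ifnar1 and Ifngr1 outside the comparisons where that rule names them, were named after their values were seen. Some genes are not reported here. The labels do not say whether replicate numbers pair samples, and the main fit did not pair them. Of 18 pairs with the same number, 6 had a correlation of deviations over 0.1. Pairs with different numbers were not examined, so this cannot decide whether the numbers pair samples. P values measure the spread between pools of mice. Summaries were made in Python (3.11.15) using pandas (2.3.3), scipy (1.17.1) and numpy (2.4.6), and plots using matplotlib (3.10.9).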

Additional observations from a re-analysis of the deposited data

How the results depend on the processing

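In each comparison 0 members were called under every alternative run, except that limma-voom with quality weights called 3 members in FN versus MN, whose log2 fold changes there were 0.91 for Isg15, 1.06 for Usp18 and 0.52 for Igtp. Over all genes, where edgeR with 12 libraries called 0 in each comparison, it called 6 in MT versus MN with the males alone, and in the 9 libraries 3 in MT versus MN, 54 in FN versus MN and 1 in FT versus MT. Without FT replicate 1 it called 755 in FT versus MT, and without FN replicate 1 it called 1 in FN versus MN. Among the log2 fold changes printed with the name of a member, the direction turned in few settings. Over all 9 members, the sign changed under at least 1 alternative for 9 in FT versus FN and 4 in FT versus MT. It changed for 3 in FN versus MN and 1 in MT versus MN. The log2 fold change of Isg15 in MT versus MN was -0.089 in limma-voom with quality weights and ranged from -0.023 to 0.49 with 1 library left out, the lowest without MT replicate 3. In FT versus FN, without FN replicate 2 and FT replicate 2 (10 libraries), Irf7 was at 0.13 and Isg15 at 0.022, and Isg15 ranged from -0.66 to 0.21 with 1 library left out, the highest without FN replicate 2. In the 9 libraries, Isg15 was at -0.38 in FT versus MT, and Psmb8 was at -0.0065 in FT versus FN against 1.42 in 12 libraries. The cause was not tested in any of these. Counted with 1 library left out, the members whose groups did not overlap numbered 3 to 6 in MT versus MN, 3 to 5 in FN versus MN (5 in the 9 libraries) and 1 to 3 below in FT versus MT, where fewer libraries make overlap less likely for any gene. The 6 in MT versus MN came without MT replicate 2, where Ifit1, Isg15 and Gbp2 were added, beside 9.32% of all genes. The 3 in FT versus MT also came without MT replicate 2, with Irf7 and Ifit1 added, beside 11.4% of all genes, and 2 came without FT replicate 1, with Gbp2 added, beside 31.1% of all genes. In that setting Isg15 lay above MT without overlap, beside 15.1% of all genes. With a replicate block, 0 members were called in any comparison and the median of the members was 0.55 in MT versus MN, -0.21 in FT versus FN, 0.49 in FN versus MN, -0.68 in FT versus MT and -0.84 for the difference between the sexes. Whether the numbers pair the samples is not given in the labels, and the correlation of deviations between libraries of the same number ran from -0.42 to 0.67. Depth limits Ifit3 most, which rested on 4 to 58 reads per library.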
